A study of Mus musculus with 8 samples.

Results

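The inflammasome and pyroptosis genes described here are 10 of the 21958 genes in the deposited tables. They were taken by symbol and cover the sensors *Nlrp3*, *Nlrp1b*, *Nlrp1a*, *Nlrc4*, *Naip2* and *Naip5*, the adaptor *Pycard*, the caspases *Casp1* and *Casp4*, and the pore protein *Gsdmd*. All 10 passed the filter on low counts in every comparison. Together they held between 0.0408% and 0.0805% of the reads of a library.

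The libraries came from bone marrow cells of C57BL/6 mice, labelled as bone marrow-derived monocytes, which were grown with 50 ng/ml M-CSF and 100 ng/ml RANKL to start osteoclast differentiation. M-CSF keeps cells of the monocyte lineage alive, and RANKL is the cytokine that turns them into bone-resorbing osteoclasts. There were 4 groups of 2 libraries, all under both cytokines. Arid1a cKO cells had the genotype LysM-Cre;Arid1a fl/fl, so that Cre, driven by the lysozyme M promoter of myeloid cells, removes exons from a subunit of the BAF chromatin remodelling complex. Arid1a control cells are labelled only as control in genotype. JQ1 cells were wild type and received JQ1, a small molecule that displaces BET proteins from acetylated chromatin, and JQ1 control cells were wild type without it. The study used marrow of young mice. The time of harvest is not stated. The study's supplement calls the libraries of the Arid1a experiment biologically independent and nothing read here says so for the JQ1 experiment, so p-values measure the spread between these libraries, which for JQ1 may be technical.

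The column codes of the JQ1 table were read as control and treated from their names, so each JQ1 direction depends on this assignment. *Hexim1*, a gene known to rise when BET proteins are displaced, was higher in the JQ1 libraries (log2 fold change 0.99 ± 0.07 (SE), adjusted p = 3.35e-24, edgeR). CPM here is the count scaled to library size with TMM factors (trimmed mean of M values) within each experiment. *Arid1a* itself was lower in Arid1a cKO libraries, at 123 ± 3.33 CPM against 194 ± 49.1 CPM in Arid1a control (SD, n = 2 each). The log2 fold change was -0.65 ± 0.15 (SE, adjusted p = 0.00607, edgeR). It ran from -0.89 to -0.37 when each library was left out in turn, so its size depended on single libraries. Reads outside the removed exons still count for this gene. Library totals ran from 15108239 to 17302136 reads. Monocyte and macrophage markers summed to between 3423 and 5008 CPM in every library, and summed B cell, T and NK cell, erythroid and dendritic cell markers reached at most 3.57 CPM. Of 7 osteoclast markers, 6 averaged above 1 CPM in Arid1a cKO and Arid1a control, 5 in JQ1 control and 4 in JQ1. *Calcr*, 1 of the 7, was at 0 reads in all 8 libraries. Neutrophil markers summed to between 36.4 and 274 CPM, and stromal markers to between 19.6 and 49.5 CPM.

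An inflammasome is a protein platform that forms in the cytosol when a sensor detects a microbe or cell damage. NLRP3 responds to membrane damage and ion loss, the NLRP1 proteins to proteases, and NAIP proteins bind bacterial flagellin or secretion system proteins and then recruit NLRC4. The adaptor ASC, encoded by *Pycard*, joins sensors to caspase-1, which cuts pro-IL-1β, pro-IL-18 and gasdermin D. Mouse caspase-11, encoded by *Casp4*, binds cytosolic lipopolysaccharide and also cuts gasdermin D. The freed gasdermin D fragment forms pores in the plasma membrane, and the resulting lytic death is called pyroptosis. Macrophages hold most of these proteins at rest, while *Nlrp3* and *Casp4* are induced by inflammatory signals.

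The genes lie in a few clusters (coordinates as in the deposited tables, build GRCm39). *Nlrp1a* (ENSMUSG00000069830, chr11:70983062-71035530) and *Nlrp1b* (ENSMUSG00000070390, chr11:71043928-71121559) are neighbours on the minus strand, 8397 bases apart. *Nlrp3* (ENSMUSG00000032691, chr11:59432394-59457782) is on the plus strand of the same chromosome. *Casp1* (ENSMUSG00000025888, chr9:5298508-5307290) and *Casp4* (ENSMUSG00000033538, chr9:5308828-5336783) lie 1537 bases apart on the plus strand. *Naip2* (ENSMUSG00000078945, chr13:100280571-100338600) and *Naip5* (ENSMUSG00000071203, chr13:100348247-100382831) lie 9646 bases apart on the minus strand. The other members are *Nlrc4* (ENSMUSG00000039193, chr17:74732433-74766137), *Pycard* (ENSMUSG00000030793, chr7:127588880-127593039) and *Gsdmd* (ENSMUSG00000022575, chr15:75734176-75739257).

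Loss of *Arid1a* and JQ1 were followed by different changes in these genes. In Arid1a cKO libraries 6 of the 10 genes were higher (*Nlrp1b*, *Naip5*, *Naip2*, *Nlrp3*, *Casp4* and *Casp1*) and *Nlrp1a* was lower, at an adjusted p under 0.05 in the edgeR quasi-likelihood test. Of all genes tested, 34.4% passed in that comparison (18.1% higher and 16.3% lower). After JQ1, 5 were lower (*Nlrp3*, *Nlrp1b*, *Gsdmd*, *Nlrc4* and *Nlrp1a*) and *Naip2* was slightly higher, where 39.8% of all genes passed (19.3% higher and 20.5% lower). The median log2 fold change of the 10 genes was 0.64 in Arid1a cKO against Arid1a control and -0.32 in JQ1 against JQ1 control, and the medians over all genes tested were -0.0035 and 0.0026. The groups did not overlap for 8 of the 10 genes in each comparison, where the same held for 69.2% of all genes tested in the Arid1a experiment and 68.4% in the JQ1 experiment.

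**Figure D1:**
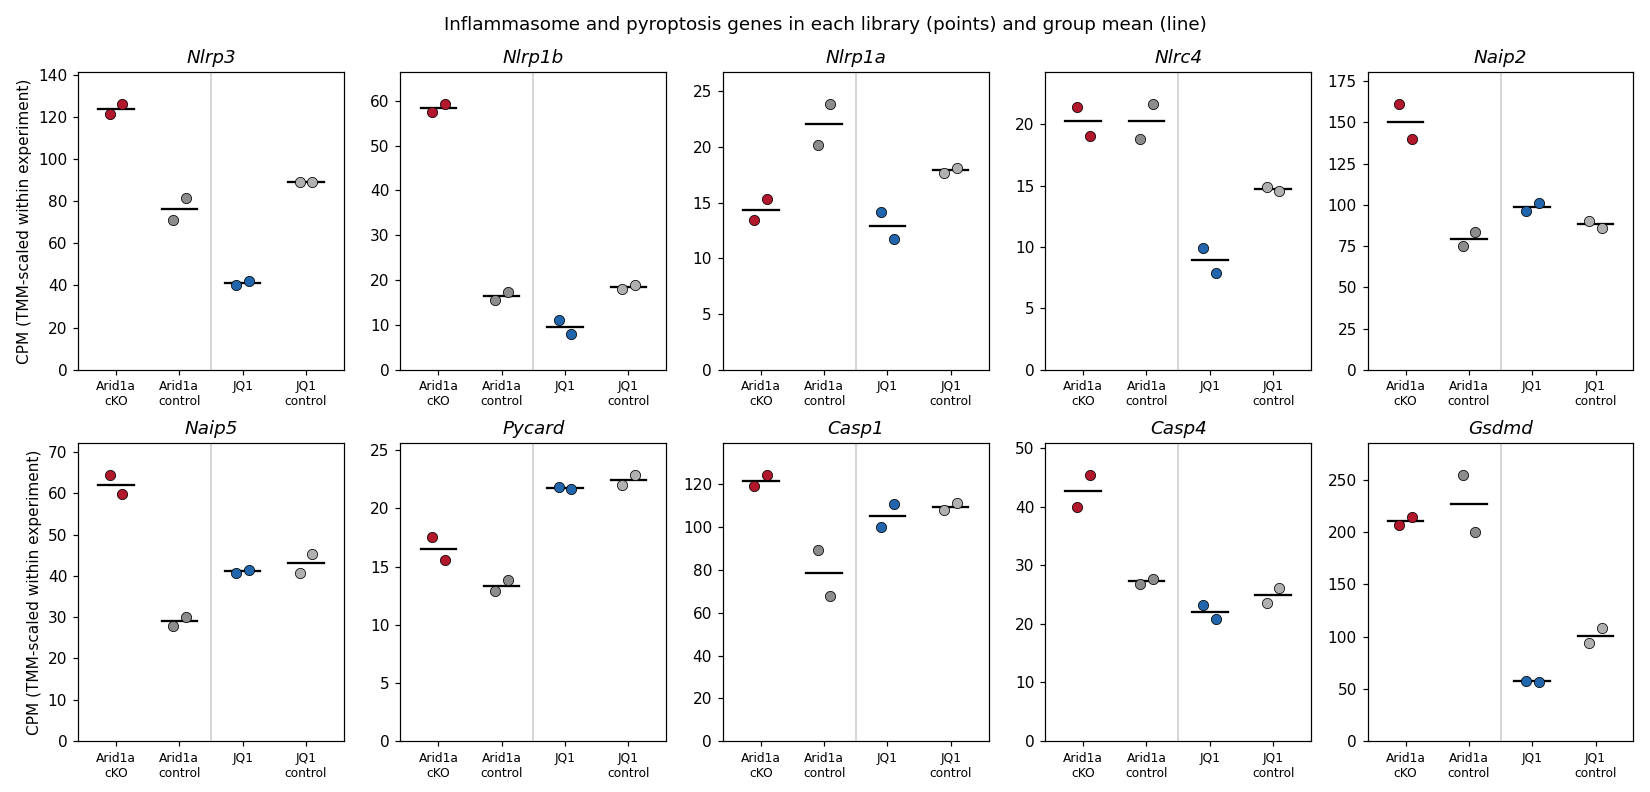
Level of each of the 10 genes in CPM (counts scaled to library size by TMM within each experiment) in the 8 libraries. Points are libraries and black lines are group means of 2 libraries, with Arid1a cKO, Arid1a control, JQ1 and JQ1 control from left to right. Nlrp1b stands at 57.6 and 59.3 CPM in Arid1a cKO against 15.5 and 17.4 in Arid1a control, and Nlrp1a runs the other way.

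*Nlrp1b* showed the largest change of the 10 genes after *Arid1a* loss. It had 57.6 and 59.3 CPM in Arid1a cKO libraries, against 15.5 and 17.4 CPM in Arid1a control libraries. It had 11.01 and 7.95 CPM in JQ1 libraries, against 18.0 and 18.9 CPM in JQ1 control libraries. Both cKO libraries were thus well above their controls, both JQ1 libraries were below theirs, and no groups overlapped within an experiment. The log2 fold change was 1.83 ± 0.12 in Arid1a cKO against Arid1a control (3.56-fold, adjusted p = 1.95e-06) and -0.96 ± 0.15 in JQ1 against JQ1 control (adjusted p = 2.84e-08). NLRP1B is a mouse sensor that proteases can activate by triggering the decay of its inhibitory end.

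*Nlrp1a*, the paralog next to it, was lower in both treated groups. It had 13.4 and 15.3 CPM in Arid1a cKO libraries, against 20.2 and 23.9 CPM in Arid1a control libraries. It had 14.2 and 11.7 CPM in JQ1 libraries, against 17.6 and 18.2 CPM in JQ1 control libraries. The groups did not overlap in either experiment. The log2 fold change was -0.62 ± 0.15 (adjusted p = 0.0104) after *Arid1a* loss and -0.47 ± 0.14 (adjusted p = 0.00346) after JQ1. The first call was lost without Arid1a cKO library 1 (adjusted p = 0.103) and the second without JQ1 library 2 (adjusted p = 0.147).

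The order of the pair by length-scaled level differed between Arid1a cKO and the other groups. In FPKM, counts scaled to gene length and library size, *Nlrp1b* stood at 2.83 and 2.56 times the FPKM of *Nlrp1a* in Arid1a cKO libraries, against 0.506 and 0.481 times in Arid1a control libraries. The ratio was 0.514 and 0.448 in JQ1 libraries, against 0.672 and 0.686 in JQ1 control libraries. Thus in FPKM *Nlrp1b* was the higher of the pair in the 2 cKO libraries and the lower in the other 6. The gene lengths used were 6305 bases for *Nlrp1b* and 4166 for *Nlrp1a*, while their canonical transcripts have 4131 and 4914 bases. Where counts are close, the order depends on these lengths. In JQ1 control libraries *Nlrp1b* had 287 and 296 reads, against 282 and 285 for *Nlrp1a*.

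**Figure D2:**
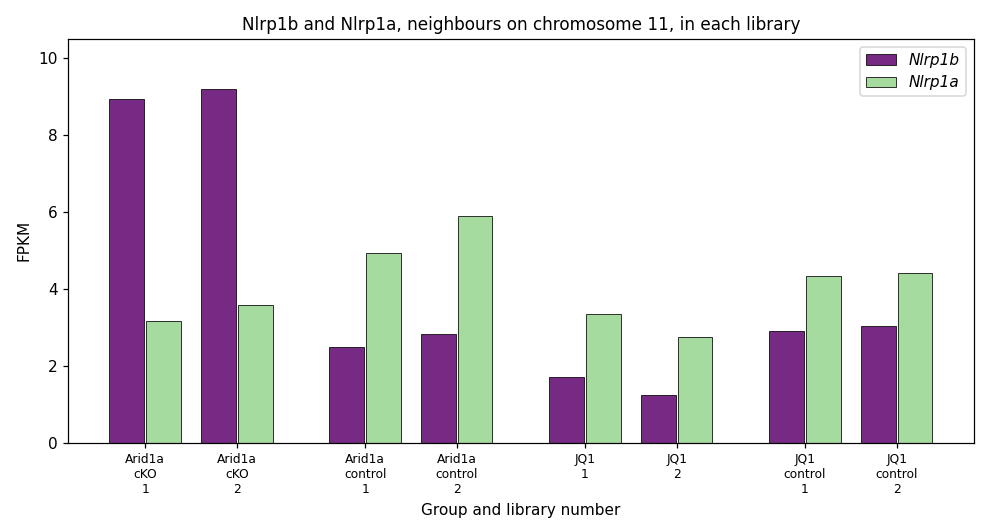
FPKM (counts scaled to gene length and library size) of Nlrp1b and Nlrp1a in each of the 8 libraries, 1 bar per gene and library, with groups in the order Arid1a cKO, Arid1a control, JQ1, JQ1 control. The Nlrp1b bar is taller than the Nlrp1a bar only in the Arid1a cKO libraries, by 2.83 and 2.56 times. The order in JQ1 control depends on the gene lengths used.

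The promoters of this pair are shown because the genes moved in opposite directions after *Arid1a* loss while their upstream sequences are close copies. The windows run from 250 bases before to 50 bases after the start in RefSeq (build GRCm38.p6, both on the minus strand, printed in the direction of transcription), and their coordinates are not on the build of the gene coordinates above. The *Nlrp1b* window is chr11:71230684-71230983 and the *Nlrp1a* window is chr11:71144655-71144954, and capitals mark the PU.1 motif GAGGAAGT.
Nlrp1b: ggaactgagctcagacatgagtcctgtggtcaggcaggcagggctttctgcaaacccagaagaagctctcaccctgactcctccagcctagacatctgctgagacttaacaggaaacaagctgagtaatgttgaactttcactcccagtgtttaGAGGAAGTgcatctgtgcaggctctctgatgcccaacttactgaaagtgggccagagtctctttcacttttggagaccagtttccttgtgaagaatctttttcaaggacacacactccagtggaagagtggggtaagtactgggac
Nlrp1a: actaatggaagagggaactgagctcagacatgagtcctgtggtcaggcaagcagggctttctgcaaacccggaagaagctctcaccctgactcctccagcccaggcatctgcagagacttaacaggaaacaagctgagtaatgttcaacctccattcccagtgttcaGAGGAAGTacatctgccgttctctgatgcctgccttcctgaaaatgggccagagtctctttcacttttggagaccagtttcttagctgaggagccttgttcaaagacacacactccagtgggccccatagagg
In a global alignment 256 of 314 aligned positions were identical (81.5%), and the longest run shared without a difference was 37 bases. A PU.1 motif lay 96 bases before the start of *Nlrp1b* and 83 bases before the start of *Nlrp1a*. The motif, searched on both strands, was present in 3.20% of the 32851 RefSeq windows of this length, and 3 of the 9 members with a window held it, the other being *Pycard*. RefSeq gives *Nlrp1b* a further start, whose window was 51.9% identical to that of *Nlrp1a* and held no match to the motifs searched.

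The transcripts themselves are distinct enough to separate most reads. Of the windows of 75 bases in the canonical *Nlrp1b* transcript, 28 of 4057 (0.690%) also occurred in an annotated *Nlrp1a* transcript. All of them lie in a stretch of 102 coding bases, at transcript positions 2712 to 2813 of *Nlrp1b* and 2893 to 2994 of *Nlrp1a* (GENCODE, build GRCm39), shown because it is the part where a read could come from either gene.
Nlrp1b and Nlrp1a: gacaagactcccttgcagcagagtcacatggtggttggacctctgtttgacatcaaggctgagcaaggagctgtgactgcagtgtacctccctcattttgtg
The stretch is a small part of transcripts of 4131 and 4914 bases.

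*Nlrp3*, the sensor of membrane damage and ion loss, moved in opposite directions in the 2 experiments. It had 121 and 126 CPM in Arid1a cKO libraries, against 71.1 and 81.5 CPM in Arid1a control libraries. In JQ1 libraries it had 40.4 and 41.9 CPM, against 88.9 and 89.2 CPM in JQ1 control libraries. The libraries of each group lay close together and no groups overlapped within an experiment. The log2 fold change was 0.70 ± 0.11 (1.62-fold, adjusted p = 5.92e-04) after *Arid1a* loss and -1.11 ± 0.08 (2.16-fold lower, adjusted p = 2.03e-25) after JQ1, the largest fall among the 10 genes.

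Both caspase genes were higher in Arid1a cKO. *Casp1*, which encodes the caspase that matures IL-1β and IL-18, had 119 and 124 CPM in Arid1a cKO libraries, against 89.3 and 67.7 CPM in Arid1a control libraries (log2 fold change 0.63 ± 0.13, adjusted p = 0.00376). The control libraries differed by 1.32 times, the widest spread of the 10 genes in the Arid1a experiment, yet both lay below the cKO libraries. *Casp4*, the gene of the lipopolysaccharide-binding caspase-11, had 40.0 and 45.4 CPM in Arid1a cKO libraries, against 26.9 and 27.6 CPM in Arid1a control libraries (log2 fold change 0.65 ± 0.12, adjusted p = 0.00199).

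Neither caspase gene passed the test after JQ1. *Casp1* had 100.1 and 111 CPM in JQ1 libraries, against 108 and 111 CPM in JQ1 control libraries (log2 fold change -0.06 ± 0.07, adjusted p = 0.534), and the groups overlapped. *Casp4* had 23.3 and 20.8 CPM in JQ1 libraries, against 23.6 and 26.1 CPM in JQ1 control libraries (log2 fold change -0.18 ± 0.11, adjusted p = 0.222). The canonical *Casp1* and *Casp4* transcripts shared no window of 75 bases with each other.

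The promoters of *Nlrp3* and *Casp4* are shown because they were the only members whose windows matched the NF-kB motif GGGNNTTCC, and both genes were higher in Arid1a cKO. The *Nlrp3* window is chr11:59542436-59542735 and the *Casp4* window is chr9:5308599-5308898 (RefSeq, build GRCm38.p6, both on the plus strand), and capitals mark the motif on either strand.
Nlrp3: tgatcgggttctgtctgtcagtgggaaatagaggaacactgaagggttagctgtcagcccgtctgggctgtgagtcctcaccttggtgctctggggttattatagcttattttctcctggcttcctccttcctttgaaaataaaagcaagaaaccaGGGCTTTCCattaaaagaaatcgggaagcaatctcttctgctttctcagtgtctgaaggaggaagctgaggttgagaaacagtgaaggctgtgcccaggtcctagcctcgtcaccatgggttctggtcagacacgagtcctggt
Casp4: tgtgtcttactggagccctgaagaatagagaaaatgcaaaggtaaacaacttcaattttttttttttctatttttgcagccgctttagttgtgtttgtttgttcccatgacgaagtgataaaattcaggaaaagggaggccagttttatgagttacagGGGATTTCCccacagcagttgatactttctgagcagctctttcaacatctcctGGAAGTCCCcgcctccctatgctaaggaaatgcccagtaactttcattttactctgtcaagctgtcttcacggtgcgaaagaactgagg
The match in *Nlrp3* begins 94 bases before the start, and those in *Casp4* begin 92 bases before it on the plus strand and 39 bases before it on the minus strand. This motif was present in 5.82% of the 32851 windows. RefSeq lists a further start for each gene. The further *Nlrp3* window (chr11:59541319-59541618) lies upstream of the one shown. It held a separate match, which begins 185 bases before its start on the minus strand. The further *Casp4* window begins 11 bases away and holds the same matches. *Naip2* held the interferon-type motif GAAANNGAA, present in 8.56% of windows, while the STAT-type motif TTCNNNGAA (8.30% of windows) and the AP-1 motif TGANTCA (7.81%) matched none of the 12 windows of the 9 members. A match in letters is not evidence of binding.

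The NAIP sensors rose after *Arid1a* loss while *Nlrc4*, the protein they recruit, did not pass the test. *Naip5*, the receptor for flagellin, had 64.4 and 59.8 CPM in Arid1a cKO libraries, against 27.9 and 30.1 CPM in Arid1a control libraries (log2 fold change 1.10 ± 0.11, 2.15-fold, adjusted p = 3.83e-05). *Naip2*, which binds the rod protein of bacterial secretion systems, had 161 and 139.7 CPM in Arid1a cKO libraries, against 75.1 and 83.2 CPM in Arid1a control libraries (log2 fold change 0.93 ± 0.11, adjusted p = 1.15e-04). *Nlrc4* had 21.4 and 19.1 CPM in Arid1a cKO libraries, against 18.8 and 21.7 CPM in Arid1a control libraries (log2 fold change 0.0017 ± 0.14, adjusted p = 0.994). For both NAIP genes the cKO libraries were clear of the controls, and for *Nlrc4* the groups overlapped.

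After JQ1 it was *Nlrc4* that fell, while *Naip5* did not pass the test. *Nlrc4* had 9.95 and 7.89 CPM in JQ1 libraries, against 14.9 and 14.6 CPM in JQ1 control libraries (log2 fold change -0.73 ± 0.16, adjusted p = 5.50e-05). *Naip5* had 40.8 and 41.4 CPM in JQ1 libraries, against 40.7 and 45.4 CPM in JQ1 control libraries (log2 fold change -0.07 ± 0.09, adjusted p = 0.588). *Naip2* had 96.2 and 101 CPM in JQ1 libraries, against 90.0 and 86.2 CPM in JQ1 control libraries (log2 fold change 0.16 ± 0.07, adjusted p = 0.0470). *Nlrc4* thus fell without overlap, and the *Naip2* call was marginal and was lost in 9 of 13 alternative settings. The *Naip2* to *Nlrc4* ratio in FPKM was 7.47 and 7.26 in Arid1a cKO libraries, against 3.96 and 3.81 in Arid1a control libraries, and 9.59 and 12.7 in JQ1 libraries, against 5.99 and 5.86 in JQ1 control libraries.

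The NAIP counts carry some uncertainty between paralogs, since 18.8% of the windows of 75 bases in the canonical *Naip5* transcript and 7.84% of those in *Naip2* also occur in another *Naip* gene. The exons of *Nlrc4* share 867 of 4835 bases with *Slc30a6* on the opposite strand, and the strand setting of the counting is not given, so reads from that stretch cannot be told apart. *Slc30a6* did not pass the test in either experiment (log2 fold change -0.21 ± 0.16, adjusted p = 0.320 after *Arid1a* loss, and -0.27 ± 0.12, adjusted p = 0.0601 after JQ1).

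*Gsdmd*, the gene of the pore protein, was lower after JQ1 and did not pass the test after *Arid1a* loss. It had 207 and 214 CPM in Arid1a cKO libraries, against 254 and 199.95 CPM in Arid1a control libraries, and the cKO values lay between those of the controls (log2 fold change -0.11 ± 0.11, adjusted p = 0.483). It had 57.6 and 56.7 CPM in JQ1 libraries, against 93.8 and 108 CPM in JQ1 control libraries (log2 fold change -0.82 ± 0.07, 1.76-fold lower, adjusted p = 2.50e-18). The control groups of the experiments also stood apart, at 227 ± 38.5 CPM in Arid1a control and 101 ± 9.95 CPM in JQ1 control (SD, n = 2 each), which is given as a level only because the experiments were scaled separately. Without Arid1a control library 2 the gene was called as lower (log2 fold change -0.28, adjusted p = 5.26e-07), and without Arid1a control library 1 the value was 0.07 (adjusted p = 0.330).

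*Pycard*, the gene of the adaptor ASC, did not pass the test in either experiment. It had 17.5 and 15.6 CPM in Arid1a cKO libraries, against 12.9 and 13.8 CPM in Arid1a control libraries (log2 fold change 0.31 ± 0.15, adjusted p = 0.142). It had 21.8 and 21.7 CPM in JQ1 libraries, against 22.0 and 22.9 CPM in JQ1 control libraries (log2 fold change -0.05 ± 0.12, adjusted p = 0.794). The groups did not overlap in either experiment, by a small margin after JQ1. Of its 4235 exonic bases 485 are shared with *Gm45205*, and without a stated strand setting reads there cannot be told apart. The same limit holds for 283 of 3003 exonic bases of *Gsdmd* (*Gm62577*) and 110 of 3136 of *Casp1* (*Gm67740*).

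**Figure D3:**
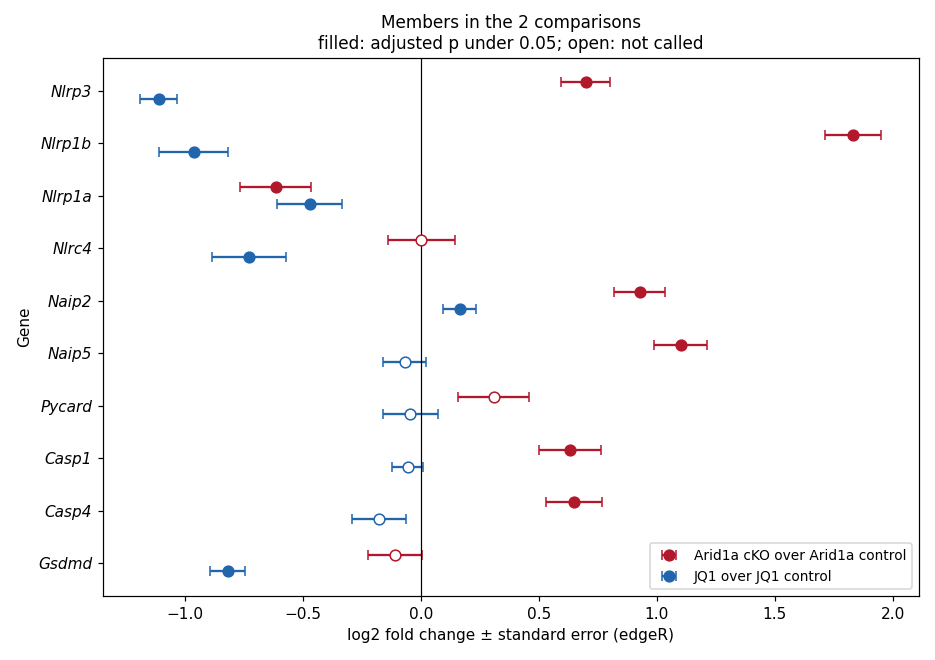
Log2 fold change with its standard error (edgeR) of each of the 10 genes in Arid1a cKO against Arid1a control (red, upper of each pair) and in JQ1 against JQ1 control (blue, lower). Filled points passed at an adjusted p under 0.05, which 7 genes did after Arid1a loss and 6 after JQ1, and Nlrp3 and Nlrp1b are the genes that passed in opposite directions.

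An interaction contrast over all 8 libraries compared the responses, taking the log2 fold change of Arid1a cKO over its control minus that of JQ1 over its control. This difference was positive for 8 of the 10 genes and negative for 0 at an adjusted p under 0.05, where 28.3% of all genes passed (15.8% positive and 12.5% negative). The median was 0.75 over the 10 genes and -0.02 over all genes tested. It was widest for *Nlrp1b* (2.79 ± 0.20, adjusted p = 2.25e-08) and *Nlrp3* (1.81 ± 0.12, adjusted p = 1.52e-08), followed by *Naip5* (1.17 ± 0.14, adjusted p = 1.04e-05).

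The other genes that passed had differences between 0.69 and 0.82. They were *Casp4* (0.82 ± 0.16, adjusted p = 0.00119), *Naip2* (0.76 ± 0.13, adjusted p = 2.58e-04), *Nlrc4* (0.73 ± 0.21, adjusted p = 0.0162), *Gsdmd* (0.71 ± 0.15, adjusted p = 0.00173) and *Casp1* (0.69 ± 0.15, adjusted p = 0.00279). *Nlrp1a*, which was lower in both experiments, gave -0.15 ± 0.20 (adjusted p = 0.636) and *Pycard* gave 0.35 ± 0.18 (adjusted p = 0.152). The *Nlrc4* call was lost without Arid1a cKO library 1 (adjusted p = 0.0798), JQ1 library 2 (0.107) or JQ1 control library 1 (0.0555).

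Markers of neutrophils, a cell type of the marrow that also uses several of these genes, were higher in Arid1a cKO and lower after JQ1. Of 12 neutrophil markers, 10 could be tested after *Arid1a* loss, of which 8 were higher and 0 lower, and 9 after JQ1, of which 6 were lower and 0 higher. Their summed level was 248 to 274 CPM in Arid1a cKO libraries, against 145 to 151 CPM in Arid1a control libraries. It was 36.4 to 36.9 CPM in JQ1 libraries, against 91.2 to 91.3 CPM in JQ1 control libraries. *Mmp8* alone held much of each sum, so the sums do not show the size of the change in the other markers. It averaged 132 CPM in Arid1a cKO, against 123 CPM in Arid1a control (0.11 ± 0.10, not called). After JQ1 it averaged 14.2 CPM, against 51.5 CPM in JQ1 control (-1.86 ± 0.11). The 8 markers that were higher after *Arid1a* loss had log2 fold changes from 1.92 ± 0.42 (*Camp*) to 3.28 ± 0.28 (*Ltf*). Among them *Ngp* averaged 62.5 CPM in Arid1a cKO, against 12.8 CPM in Arid1a control. The 6 that were lower after JQ1 ranged from -0.76 ± 0.18 (*S100a9*) to -1.92 ± 0.42 (*Mpo*). The defining marker *Ly6g* had 2 reads over the Arid1a cKO libraries and was at 0 in the other groups, and *Retnlg* and *Cxcr2* were at 0 in JQ1. Macrophage markers summed to 4936 to 5008 CPM in Arid1a cKO libraries, against 3423 to 3441 CPM in Arid1a control libraries. They summed to 4125 to 4372 CPM in JQ1 libraries, against 3925 to 3986 CPM in JQ1 control libraries. Of the 6 markers 4 were higher and 1 lower after *Arid1a* loss, and 3 were higher and 1 lower after JQ1. The lower ones were *Cd14* after *Arid1a* loss (-0.54 ± 0.11) and *Fcgr1* after JQ1 (-2.41 ± 0.11). Osteoclast markers summed to 119.9 to 133 CPM in Arid1a cKO libraries, against 318 to 322 CPM in Arid1a control libraries. They summed to 38.4 to 42.8 CPM in JQ1 libraries, against 138 to 161 CPM in JQ1 control libraries, and *Ocstamp* was at 0 in JQ1. Of those tested 4 of 6 were lower and 0 higher after *Arid1a* loss, and 5 of 5 were lower after JQ1. Most of the first difference was *Mmp9*, at 18.8 CPM in Arid1a cKO, against 184 CPM in Arid1a control. *Acp5* (0.17 ± 0.13) and *Atp6v0d2* (-0.31 ± 0.13) did not pass after *Arid1a* loss. Stromal markers summed to 19.6 to 23.6 CPM in Arid1a cKO libraries, against 25.7 to 26.3 CPM in Arid1a control libraries, and to 23.4 to 24.0 CPM in JQ1 libraries, against 41.3 to 49.5 CPM in JQ1 control libraries, where 2 of 3 tested were lower. Of the mast cell and basophil markers *Cpa3* and *Ms4a2* were at 0 in Arid1a cKO and Arid1a control, *Mcpt8* had 1 read over the Arid1a cKO libraries and 0 in Arid1a control, and *Gata2*, which other cells also express, averaged 10.1 CPM in Arid1a cKO, against 1.93 CPM in Arid1a control. The part of these shifts in the member results was not tested, and in bulk RNA fewer cells of a type and less RNA per cell cannot be told apart.

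Compared per length in FPKM, the order of the 10 genes differed between groups. Ranks between genes depend on the deposited gene lengths, which differ unevenly from those of the canonical transcripts. They are 3136 bases for *Casp1* and 3710 for *Casp4*, against transcripts of 1531 and 1441 bases, while *Naip5* has 5204 bases in both. In Arid1a cKO *Gsdmd* was highest (86.5 ± 1.90 FPKM), followed by *Casp1* (37.9 ± 1.08), and *Naip2* (30.4 ± 3.13) and *Nlrp3* (29.8 ± 0.750) came next without differing beyond their spread (SD, n = 2 each). In Arid1a control the order began with *Gsdmd* (97.6 ± 15.7 FPKM), *Casp1* (25.6 ± 4.76), *Nlrp3* (19.2 ± 2.03) and *Naip2* (16.7 ± 1.36). In JQ1 it was *Casp1* (33.0 ± 2.34 FPKM) that led, ahead of *Gsdmd* (23.6 ± 0.290) and *Naip2* (20.0 ± 0.679), with *Nlrp3* at 9.96 ± 0.259. In JQ1 control *Gsdmd* (43.1 ± 4.06 FPKM) came before *Casp1* (35.6 ± 0.607), *Nlrp3* (22.3 ± 0.0431) and *Naip2* (18.5 ± 0.647). *Nlrp1b* was the lowest of the 10 in Arid1a control (2.66 FPKM), JQ1 (1.48) and JQ1 control (2.97), and in Arid1a cKO it ranked 7th at 9.06 FPKM, where *Nlrp1a* was lowest at 3.37 FPKM.

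The wider pathway was followed through 56 further genes in 10 lists. After *Arid1a* loss 25 of the 46 that could be tested were higher and 3 lower, and after JQ1 9 of 45 were higher and 16 lower, with median log2 fold changes of 0.34 and -0.20. Of all genes tested 18.1% were higher and 16.3% lower after *Arid1a* loss, and 19.3% higher and 20.5% lower after JQ1, with medians of -0.0035 and 0.0026. For the difference between the responses 24 of 46 were positive and 5 negative, where 15.8% of all genes were positive and 12.5% negative. *Gm12250*, *Pydc3* and *Pydc4* matched no symbol, and *Nlrp6*, *Nlrp12*, *Trim31*, *Casp12*, *Gsdma*, *Gsdmc* and *Il1a* had too few reads to test in either experiment.

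Among other sensors 6 of 9 were higher and 0 lower after *Arid1a* loss, and 1 of 9 was higher and 5 lower after JQ1. *Naip6*, a further flagellin receptor, was higher in Arid1a cKO (log2 fold change 0.96 ± 0.14) and passed after JQ1 only without JQ1 library 2 (-0.31, adjusted p = 0.0332), with -0.19 ± 0.09 over all libraries. *Naip1*, which binds the needle protein of secretion systems, had 6 reads over the JQ1 libraries, against 86 over the JQ1 control libraries (-3.80 ± 0.58), and was higher in Arid1a cKO (0.93 ± 0.30), a call lost with DESeq2 (adjusted p = 0.0849), without Arid1a cKO library 1 (0.294) or without Arid1a control library 1 (0.0559). *Mefv*, which encodes pyrin, had 9 reads over the JQ1 libraries, against 86 over the JQ1 control libraries (-3.24 ± 0.54), and gave -0.37 ± 0.20 after *Arid1a* loss, which passed only without Arid1a cKO library 2 (-0.69, adjusted p = 0.0383) or Arid1a control library 2 (-0.43, 0.0326). *Aim2*, the sensor of cytosolic DNA, was higher in both experiments (0.46 ± 0.11 and 0.49 ± 0.08), and the first call was lost without Arid1a cKO library 1 (adjusted p = 0.176). *Nod1*, a sensor of bacterial cell wall fragments, was higher in Arid1a cKO (1.66 ± 0.13), and *Nlrc3*, which dampens innate signalling, was higher in Arid1a cKO (0.54 ± 0.14) and lower after JQ1 (-0.86 ± 0.13).

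The guanylate-binding proteins, which coat bacteria in the cytosol and expose their lipopolysaccharide to caspase-11, moved in opposite directions in the 2 experiments. All 4 that were tested were higher after *Arid1a* loss and lower after JQ1. *Gbp2* averaged 95.7 CPM in Arid1a cKO, against 22.2 CPM in Arid1a control (log2 fold change 2.10 ± 0.17), and 3.57 CPM in JQ1, against 19.6 CPM in JQ1 control (-2.46 ± 0.18). *Gbp3* gave 1.91 ± 0.14 and -2.84 ± 0.18, and *Gbp7* gave 1.89 ± 0.11 and -2.08 ± 0.19. *Zbp1*, a nucleic acid sensor that can start cell death, had 199 CPM in Arid1a cKO, against 27.2 CPM in Arid1a control (2.87 ± 0.13), and 1.52 CPM in JQ1, against 16.4 CPM in JQ1 control (-3.44 ± 0.22). *Mlkl*, which carries out necroptosis, was higher in Arid1a cKO (0.58 ± 0.10) and lower after JQ1 (-1.02 ± 0.10). *Ripk3*, the kinase that activates it, was higher in Arid1a cKO (0.67 ± 0.13) and gave -0.17 ± 0.10 after JQ1, which did not pass, and *Ripk1* was higher after JQ1 (0.25 ± 0.06).

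The cytokines that caspase-1 matures were scarce. *Il1b* had 14 and 18 reads in the Arid1a cKO libraries, against 1 and 0 in the Arid1a control libraries, a ratio of 30.8 with an exact 95% binomial interval of 5.15 to 1250 that covers counting error only (adjusted p = 0.00414). It had 1 and 5 reads in the JQ1 libraries, against 1 and 6 in the JQ1 control libraries, too few to test. *Il18* was higher in Arid1a cKO, at 13.3 CPM against 7.26 CPM in Arid1a control (0.88 ± 0.17), and did not pass after JQ1 (-0.53 ± 0.23, adjusted p = 0.0578), except with upper-quartile factors (0.0490) or without JQ1 control library 1 (0.0416). The genes of their inhibitors were also higher in Arid1a cKO. *Il1rn*, the IL-1 receptor antagonist, averaged 402 CPM in Arid1a cKO, against 202 CPM in Arid1a control (0.99 ± 0.08), and 27.6 CPM in JQ1, against 225 CPM in JQ1 control (-3.02 ± 0.07). *Il18bp*, which neutralises IL-18, was higher in Arid1a cKO (2.22 ± 0.15) and did not pass after JQ1 (-0.46 ± 0.22).

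In the list of NLRP3 licensing factors and triggers 1 of 9 was higher and 2 lower after *Arid1a* loss, and 2 were higher and 1 lower after JQ1. Those calls are 33.3% of the list in each comparison, which is near or below the 34.4% and 39.8% of all genes. *P2rx7*, the ATP-gated channel, was higher in Arid1a cKO (0.69 ± 0.12), where *Mavs*, the adaptor of cytosolic RNA sensing, was lower (-0.56 ± 0.11) and so was the channel gene *Panx1* (-0.33 ± 0.11). The *Panx1* call was lost with DESeq2 (adjusted p = 0.0681), without Arid1a cKO library 1 (0.282) or without Arid1a cKO library 2 (0.291). After JQ1 *Txnip*, a redox protein that can bind NLRP3, was higher (0.78 ± 0.06), *Nek7*, which NLRP3 needs to assemble, was higher (0.25 ± 0.06), and *Pstpip1*, a partner of pyrin, was lower (-0.42 ± 0.06). *Nek7* gave 0.12 ± 0.10 after *Arid1a* loss, which did not pass.

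The NLRP1 checkpoint consists of the proteases DPP8 and DPP9, which hold NLRP1 inactive, and the ligase UBR2, which helps to degrade its inhibitory end. *Dpp8* was higher in both experiments (0.33 ± 0.10 and 0.30 ± 0.06), as was *Ubr2* (0.35 ± 0.10 and 0.25 ± 0.06). Both Arid1a cKO calls were lost when either cKO library was left out, with adjusted p between 0.191 and 0.311, and *Dpp8* also with upper-quartile factors (0.0524). The *Ubr2* call after JQ1 was lost in 1 fit over all libraries (0.0529) and without JQ1 library 2 (0.0647) or JQ1 control library 2 (0.0841). Of the transcription factors known to act on these genes, *Irf1* (1.40 ± 0.17) and *Irf2* (0.52 ± 0.10) were higher in Arid1a cKO, and *Irf8* was higher after JQ1 (0.41 ± 0.06). The *Irf2* call was lost without Arid1a cKO library 1 (adjusted p = 0.0702).

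Downstream of the caspases, *Ninj1*, which ruptures the membrane after pores have formed, was lower in Arid1a cKO, at 278 CPM against 381 CPM in Arid1a control (-0.45 ± 0.09), and higher after JQ1, at 304 CPM against 262 CPM in JQ1 control (0.22 ± 0.05). The Arid1a cKO call was lost without Arid1a cKO library 1 (adjusted p = 0.146). *Gsdme*, which encodes a further pore protein, was lower after JQ1 (-0.77 ± 0.13) and gave -0.20 ± 0.12 after *Arid1a* loss, which passed only without Arid1a control library 2 (-0.28, adjusted p = 0.0221). *Casp8* was marginally higher in Arid1a cKO (0.26 ± 0.09, adjusted p = 0.0494), a call lost with DESeq2 (0.0714), with upper-quartile factors (0.121) and without Arid1a cKO library 1 (0.394) or 2 (0.348). *Trim30a*, known in mouse to restrain NLRP3, was higher in Arid1a cKO (1.52 ± 0.09) and lower after JQ1 (-1.16 ± 0.06), and the membrane repair gene *Chmp4b* was lower after JQ1 (-0.21 ± 0.05), a call lost in 1 fit over all 8 libraries (adjusted p = 0.0911).

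**Figure D4:**
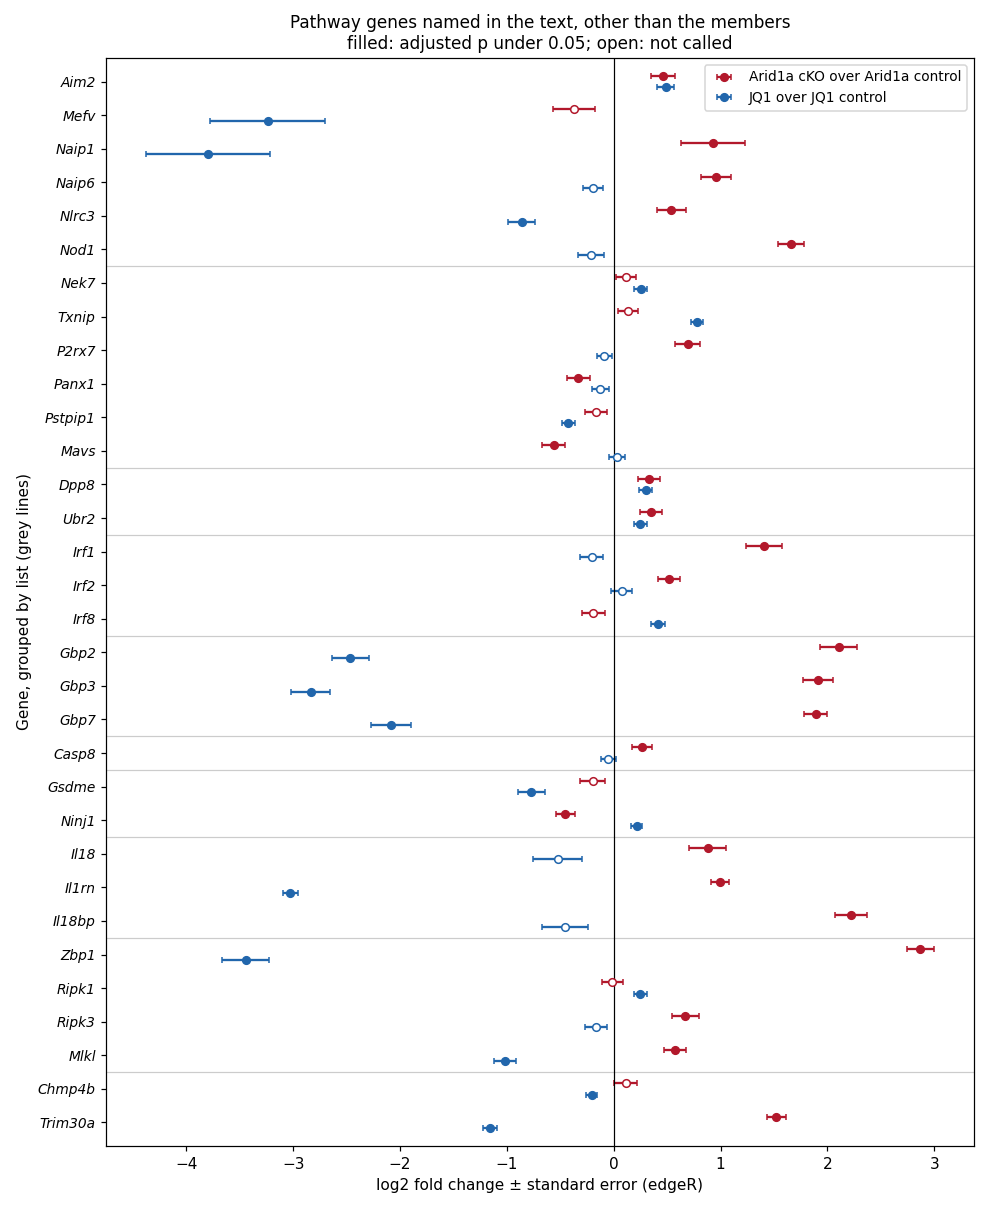
Log2 fold change with its standard error (edgeR) of 32 further pathway genes tested in both experiments and named in the text, in Arid1a cKO against Arid1a control (red, upper of each pair) and JQ1 against JQ1 control (blue, lower). Filled points passed at an adjusted p under 0.05, grey lines separate the lists, and Zbp1 shows the widest split, at 2.87 and -3.44.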

How the data were processed

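RNA-seq of 8 libraries was analysed, 2 in each of 4 groups. The authors trimmed reads with Cutadapt, aligned them to GRCm39 with HISAT2 and deposited HTSeq counts per gene, which are whole numbers. The authors also deposited FPKM, which scales the counts to gene length and library size. Neither the strand setting nor the annotation release is stated. Rows without a symbol held at most 0.0146% of reads. Library numbers of the JQ1 experiment come from its column codes.

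Counts of each experiment were fitted with edgeR 4.0.16 under R 4.3.3 (filterByExpr, TMM factors, robust quasi-likelihood F test), and the difference between the responses was fitted over all 8 libraries. P-values were adjusted by Benjamini-Hochberg over the 11319 genes tested in the Arid1a experiment, 11352 in the JQ1 experiment and 11767 for the difference, and calls were made at an adjusted p under 0.05. The biological coefficient of variation was 0.0874, 0.0470 and 0.0704. The standard error is the log2 fold change divided by the square root of F. Levels between genes were compared only in FPKM, computed for all libraries from counts, gene length and library total (within 1.21e-05% of the deposited FPKM of the Arid1a experiment for values of at least 1). The 4 FPKM columns of the JQ1 table were not used. The scripts were tested on simulated data. Alternatives were DESeq2 1.42.0, limma-voom 3.58.1, RLE and upper-quartile factors, no filter and a stricter filter on low counts, 1 fit over all libraries, a replicate block, leaving out each library, and a fold of at least 2 with an unadjusted p under 0.05 (DESeq2). Promoter windows matched by symbol for 9 of the 10 members. The members and lists were chosen with earlier results of these data known. The text names all members, 10 preset pathway genes and, in each list, genes among the 3 with the smallest p in a comparison. Of the genes this rule takes, 1 is counted in its list and left out of the text.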

Additional observations from a re-analysis of the deposited data

How the results depend on the processing

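Under a fold of at least 2 with an unadjusted p in DESeq2, 2 members were called after *Arid1a* loss, 1 after JQ1 and 3 for the difference between the responses, and 10, 10 and 18 further pathway genes. Leaving out each library in turn gave 6 to 8, 4 to 6 and 7 to 8 members, and 20 to 35, 22 to 26 and 23 to 34 pathway genes. Leave-one-out values changed sign for *Nlrc4* (-0.10 to 0.11) and *Gsdmd* (-0.28 to 0.069) after *Arid1a* loss and for *Naip5* (-0.14 to 0.011) and *Casp1* (-0.13 to 0.019) after JQ1, none of them called with all libraries. *Nlrc4* after *Arid1a* loss was also -0.059 with upper-quartile factors and -0.0017 without a filter. Apart from the fold rule, direction and call held in 113 of 120 member results after *Arid1a* loss, 109 of 120 after JQ1 and 147 of 150 for the difference. Over all genes the count of 3892 calls after *Arid1a* loss was 2235 without Arid1a cKO library 1, 2235 without Arid1a cKO library 2 and 6083 without Arid1a control library 2, and without the last of these the spread comes from the cKO pair. The count of 4516 calls after JQ1 was 2973 in 1 fit over all libraries, and the count of 3333 for the difference was 2214 without JQ1 library 1. The fold rule called 1010, 737 and 1356 genes.

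Across genes, the log2 difference between libraries 1 and 2 of the treated group was compared with that of its control group. The correlation of these differences was 0.0227 in the Arid1a experiment and -0.0372 in the JQ1 experiment (2 pairs each). With 2 pairs in each experiment these values cannot decide whether libraries were paired. The library numbers carry no stated link between groups and were not taken to pair libraries. With the replicate block 7, 5 and 8 members and 29, 25 and 29 pathway genes were called. Over all genes 4400 of 11319, 4129 of 11352 and 3330 of 11767 were called with it. The call of *Naip2* after JQ1 was lost (adjusted p = 0.0891). *Naip2* after JQ1 ranged from 0.0367 to 0.295 in adjusted p over its alternatives.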

Other observations

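The ratio of *Gsdmd* to *Casp1* in FPKM was 2.29 and 2.27 in Arid1a cKO libraries, against 3.76 and 3.90 in Arid1a control libraries, and 0.760 and 0.675 in JQ1 libraries, against 1.146 and 1.28 in JQ1 control libraries. The pore gene thus stood lower beside the caspase gene in both treated groups, with no overlap. The ratio of *Naip2* to *Naip5* was 2.69 and 2.51 in Arid1a cKO libraries, against 2.89 and 2.97 in Arid1a control libraries, and 2.53 and 2.62 in JQ1 libraries, against 2.37 and 2.04 in JQ1 control libraries.

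Over the 8 libraries, which share 2 experiments and their controls, log2 CPM of *Nlrp1b* and *Casp4* had a Pearson r of 0.966, *Nlrc4* and *Gsdmd* of 0.941, and *Naip2* and *Naip5* of 0.914. The neighbours *Nlrp1b* and *Nlrp1a* had r = 0.0136, and *Pycard* and *Gsdmd* had r = -0.857. No term for the experiment was used, so differences in level between the experiments enter each r. *Pycard* passed the test in neither experiment, and how much of its r comes from such differences was not tested. The genes most like *Nlrp1b* over the same 8 libraries were *Dennd1c* (0.999), *Htra3* (0.997) and *Chd3* (0.995), those most like *Nlrp3* were *Pira1* (0.997), *Oas3* (0.994) and *Tmem229b* (0.992), and those most like *Naip5* were *Tlr13* (0.986), *Smpdl3a* (0.978) and *Tent5a* (0.978). These values describe the libraries and were not tested.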
